A study of Mus musculus with 39 samples.

Results

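In PB2 mouse breast tumors that carried p95HER2, the 10 libraries of tumors taken 22 days after implantation were compared with the 10 libraries of tumors taken at 10 days, across all genes. These 20 of the 39 libraries of the series were chosen by construct and day as their labels give them, and no measured value was used to choose them. Both groups share the PB2 tumor model, the p95HER2 construct and growth as a graft, and they differ in the labelled day. The labels give neither the host strain, sex or age nor the promoter behind the construct, and they do not say whether each tumor came from its own animal. The p-values therefore rest on tumor-to-tumor spread as these libraries show it, which can be of technical origin. Tumor numbers run from 577 to 590 at day 10 and from 591 to 605 at day 22, with 646 and 648 for the other two day 22 tumors. Any difference in handling that follows these numbers cannot be told apart from the day. The other 19 libraries, 10 at day 10 and 9 at day 22 from PB2 tumors with full-length HER2 (FL-HER2), were used only to ask whether a change differed between the constructs.

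HER2 (gene Erbb2) is a receptor tyrosine kinase that is amplified in a class of breast cancers and signals through the MAPK and PI3K cascades. p95HER2 is a truncated form that lacks most of the extracellular domain, where antibodies against HER2 bind, and keeps the kinase. The mammary epithelium has an outer basal or myoepithelial layer, marked by keratin 14 and the transcription factor p63, and an inner luminal layer that includes the progenitors of milk-secreting cells. A growing tumor graft also holds host fibroblasts that lay down collagen, blood vessels and immune cells, so its RNA is a mixture. In such bulk RNA, fewer cells of a type and less RNA per cell cannot be told apart.

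Poly(A) RNA was sequenced to 30797813 to 36761487 reads per library, and levels are given as CPM, reads on a gene per 1000000 reads counted on genes. RNA of tissue next to a graft was present in part of the libraries of both days. Skeletal muscle genes took 0.225% to 1.13% of reads in 4 libraries of day 10 and 6 of day 22, and at most 0.0358% in the other 10. The epidermal keratin Krt1 reached 1 CPM or more in 5 libraries of day 10 and 3 of day 22, with up to 139 CPM at day 10 and 44.6 CPM at day 22. None of the 29 skeletal muscle genes tested and none of the 4 tested skin genes passed the test between days. The first principal component held 40.2% of the variance and followed the muscle reads. The second held 25.3% and separated the days without overlap, at -31.5 to -13.0 for day 10 and 18.2 to 34.9 for day 22.

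**Figure D1:**
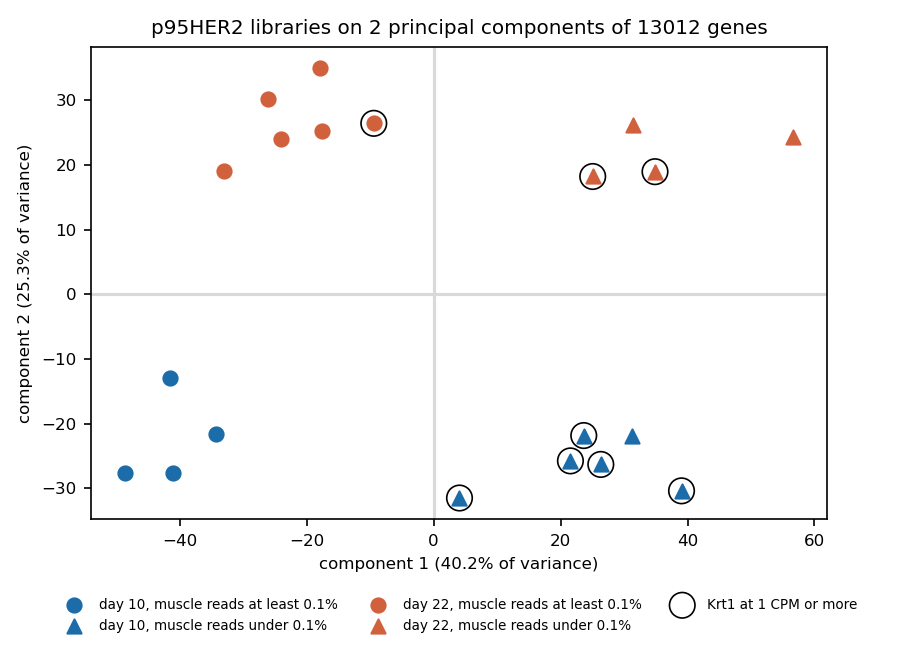
Each point is 1 of the 20 p95HER2 libraries, placed by its first (x) and second (y) principal component over 13012 genes. Color gives the day, shape the share of reads in skeletal muscle genes (at least or under 0.1%), and a ring marks Krt1 at 1 CPM or more. The days lie on opposite sides of zero on component 2 (-31.5 to -13.0 and 18.2 to 34.9), and component 1 sets libraries with and without muscle reads apart on both days.

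Of 13012 genes tested with limma, 4685 (36%) passed a Benjamini-Hochberg adjusted p of 0.05, of which 2227 (17.1% of those tested) were higher at day 22 and 2458 (18.9%) were lower. Changes are log2 differences of the deposited normalized counts plus 1, day 22 minus day 10, with their standard error (SE), so the change of a gene with few reads is understated. Most were small: 566 called genes changed at least 2-fold, 182 of them higher and 384 lower. In 908 genes (6.98%) the 2 groups did not overlap in any library, 354 of them higher (2.72%) and 554 lower (4.26%) at day 22. These shares over all genes are the background for each count of list members below. Genes named from a list were mostly chosen by small adjusted p or large change, which favors groups that do not overlap. The split of calls depended on the scaling. With values scaled to total reads, as log2(CPM + 1), 3419 genes were called higher and 1786 lower, a share of 65.7% higher against 47.5%. Within the 10 libraries with muscle reads 2426 genes passed, 2212 of them also called in the same direction over all 20, and within the other 10 libraries 3208 passed, 2999 of them also called in the same direction.

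The largest rises were led by Dcpp3 and Dcpp1, 2 genes of a cluster named for demilune cell and parotid protein, which encode secreted proteins known from salivary glands and other secretory epithelia. Dcpp3 lay between 0 and 0.964 CPM at day 10 (median 0.321) and between 4.07 and 28.4 CPM at day 22 (median 11.3), a change of 5.26 ± 0.51 (SE) on the log2 scale. Dcpp1 lay between 0.0284 and 0.771 CPM at day 10 (median 0.257) and between 3.82 and 20.1 CPM at day 22 (median 10.4) with a change of 5.10 ± 0.41. Every day 22 library held at least 3.82 CPM of each. No day 10 library reached the 1 CPM of the filter, so both genes entered the test through day 22 alone, and their changes are given as a description. The third gene of the cluster, Dcpp2, was below the filter, at 0 to 0.165 CPM at day 10 and 0.948 to 9.51 CPM at day 22. These genes are near-identical copies, so reads may be divided between them and the level of any 1 copy is uncertain. The likeness reaches into the bases before their start sites. In the 250 bases before each RefSeq start, the Dcpp2 sequence was 96.7% identical to that of Dcpp1 over 246 aligned columns and the Dcpp3 sequence 97.6% over 247, with 7 and 5 mismatched bases and 1 gap column each. The 3 stretches are shown because the copies moved together. They lie on the plus strand of GRCm38 at chr17:23880626-23880875 for Dcpp1, chr17:23898472-23898721 for Dcpp2 and chr17:23917208-23917457 for Dcpp3, are credited to RefSeq, and are printed 5′ to 3′ with aligned bases that are mismatched to Dcpp1 in capitals. Bases at an end that lie outside the alignment stay in lower case.
Dcpp1: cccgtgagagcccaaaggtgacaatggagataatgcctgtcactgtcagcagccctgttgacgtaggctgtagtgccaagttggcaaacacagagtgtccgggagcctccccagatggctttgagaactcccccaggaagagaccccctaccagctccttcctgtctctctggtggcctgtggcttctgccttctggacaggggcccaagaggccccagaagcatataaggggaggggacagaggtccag
Dcpp2: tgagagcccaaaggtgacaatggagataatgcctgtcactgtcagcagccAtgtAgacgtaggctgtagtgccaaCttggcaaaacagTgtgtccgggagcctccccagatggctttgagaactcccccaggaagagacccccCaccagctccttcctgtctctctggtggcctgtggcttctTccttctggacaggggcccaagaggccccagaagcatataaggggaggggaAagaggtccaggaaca
Dcpp3: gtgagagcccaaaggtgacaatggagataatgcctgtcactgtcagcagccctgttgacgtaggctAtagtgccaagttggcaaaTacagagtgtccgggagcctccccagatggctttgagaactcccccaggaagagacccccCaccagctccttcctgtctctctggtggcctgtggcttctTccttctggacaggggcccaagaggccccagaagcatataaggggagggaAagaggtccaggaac
All 3 hold the letters of a TATA box (tataa), which begin 26, 31 and 29 bases before the start in Dcpp1, Dcpp2 and Dcpp3.

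The other large rises belonged to genes of several kinds. Trpm3, a cation channel, lay between 0 and 0.935 CPM at day 10 (median 0.556) and between 3.20 and 13.4 CPM at day 22 (median 9.33) with a change of 4.14 ± 0.47, and it too passed the filter through day 22 alone. Cnmd, which encodes the cartilage matrix protein chondromodulin, lay between 0.872 and 7.77 CPM at day 10 (median 3.25) and between 11.3 and 75.3 CPM at day 22 (median 25.9) and rose by 3.15 ± 0.37. Neither gene overlapped between the days, although day 10 replicate 5 had no Trpm3 read and the day 22 tumors spread widely in Cnmd. Sparcl1, a matrix protein related to SPARC, was abundant and moved as a block, between 87.5 and 167 CPM at day 10 (median 122) and between 475 and 1056 CPM at day 22 (median 804) (log2 change 2.61 ± 0.13, adjusted p = 7.06e-12). Krt23, a type I keratin, lay between 4.69 and 10.5 CPM at day 10 (median 7.01) and between 28.96 and 61.5 CPM at day 22 (median 46.6) (log2 change 2.63 ± 0.15, adjusted p = 2.42e-11). The remaining genes of the 12 largest rises that met the level rule were Susd5 (3.01), the relaxin family gene Insl6 (2.99), the neuronal adhesion molecule Nfasc (2.90), the kinase Stk32b (2.79), the D-aspartate oxidase Ddo (2.77) and the anion transporter Slc26a9 (2.51). Of these 12 genes only Insl6 overlapped between days, against 2.72% of all genes higher without overlap, but the choice by size of change favors this.

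The largest falls were likewise of several kinds. Tnn, the matrix protein tenascin-N, lay between 0.914 and 33.2 CPM at day 10 (median 9.63) and between 0.109 and 2.88 CPM at day 22 (median 0.598) and fell by 3.84 ± 0.57 on the log2 scale (adjusted p = 1.42e-05), with some overlap. Stra6, the membrane receptor for retinol-binding protein, lay between 2.66 and 8.21 CPM at day 10 (median 7.03) and between 0.395 and 1.40 CPM at day 22 (median 0.582), a log2 change of -3.36 ± 0.21. Its day 10 libraries met the 1 CPM filter by themselves and its day 22 median was under 1 CPM, so this change is given as a description. Foxq1, a forkhead transcription factor, lay between 11.4 and 42.95 CPM at day 10 (median 23.5) and between 2.05 and 4.27 CPM at day 22 (median 2.97) (log2 change -2.89 ± 0.20, adjusted p = 2.59e-10). For Stra6 and Foxq1 the highest day 22 library stayed below the lowest day 10 library. Trp63, which encodes p63, lay between 13.9 and 32.1 CPM at day 10 (median 24.2) and between 2.39 and 5.81 CPM at day 22 (median 4.96) (log2 change -2.47 ± 0.16, adjusted p = 1.11e-10). Col7a1, the collagen of the fibrils that anchor epithelium to its base, lay between 63.3 and 152 CPM at day 10 (median 125) and between 10.1 and 29.99 CPM at day 22 (median 21.2) (log2 change -2.52 ± 0.19, adjusted p = 1.28e-09). Both were lower in every day 22 library than in any day 10 library. The other genes of the 12 were the cadherin Cdh15 (-3.08), the cartilage proteoglycan Acan (-2.90), the large cadherin Fat2 (-2.71), the BMP target Id3 (-2.55), the peptidylarginine deiminase Padi3 (-2.47), the receptor subunit Cntfr (-2.36) and the lectin Mgl2 of macrophages and dendritic cells (-2.34). Groups overlapped for Tnn and Mgl2 and for none of the other 10, which the choice by size again favors (4.26% of all genes were lower without overlap).

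Basal and myoepithelial genes were lower at day 22 almost as a whole. Of 22 genes listed 19 were tested, 15 were lower, 1 was higher and 3 were not called, with a median change of -1.36 against 0.003 over all genes tested. The called share was 84.2%, against 36% of all genes. Krt14, the keratin of the basal layer, lay between 101 and 162 CPM at day 10 (median 143) and between 17.4 and 51.4 CPM at day 22 (median 30.01) and fell by 2.20 ± 0.17 (adjusted p = 1.19e-09). Krt5, its partner keratin, lay between 16.1 and 51.98 CPM at day 10 (median 25.8) and between 2.59 and 28.3 CPM at day 22 (median 8.13) (log2 change -1.87 ± 0.36, adjusted p = 0.000297). Krt14 did not overlap between days, whereas the highest day 22 tumor for Krt5 lay above the day 10 median. The desmosome protein Pkp1 (-2.13 ± 0.12) and the hemidesmosome collagen Col17a1 (-1.90 ± 0.18) fell as well, without overlap. Cnn1, the calponin of contractile cells, went from a median of 3.62 to 0.672 CPM (log2 change -2.32 ± 0.28, adjusted p = 9.03e-07). The member that was higher was Itga6, an integrin subunit of hemidesmosomes that luminal progenitors also carry (log2 change 0.36 ± 0.11, adjusted p = 0.0133), and it was not called without the libraries with Krt1 (adjusted p = 0.0681) or in the libraries with few muscle reads (0.156). Skin expresses several of these genes, and Krt1 was higher in some day 10 libraries than in any of day 22. Without the 8 libraries with Krt1 at 1 CPM or more, 13 of the 19 were lower, against 1514 of all 13012 genes, and the median was -1.39. This limit was chosen after the data were seen, and the part of skin RNA in the fall was not tested.

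**Figure D2:**
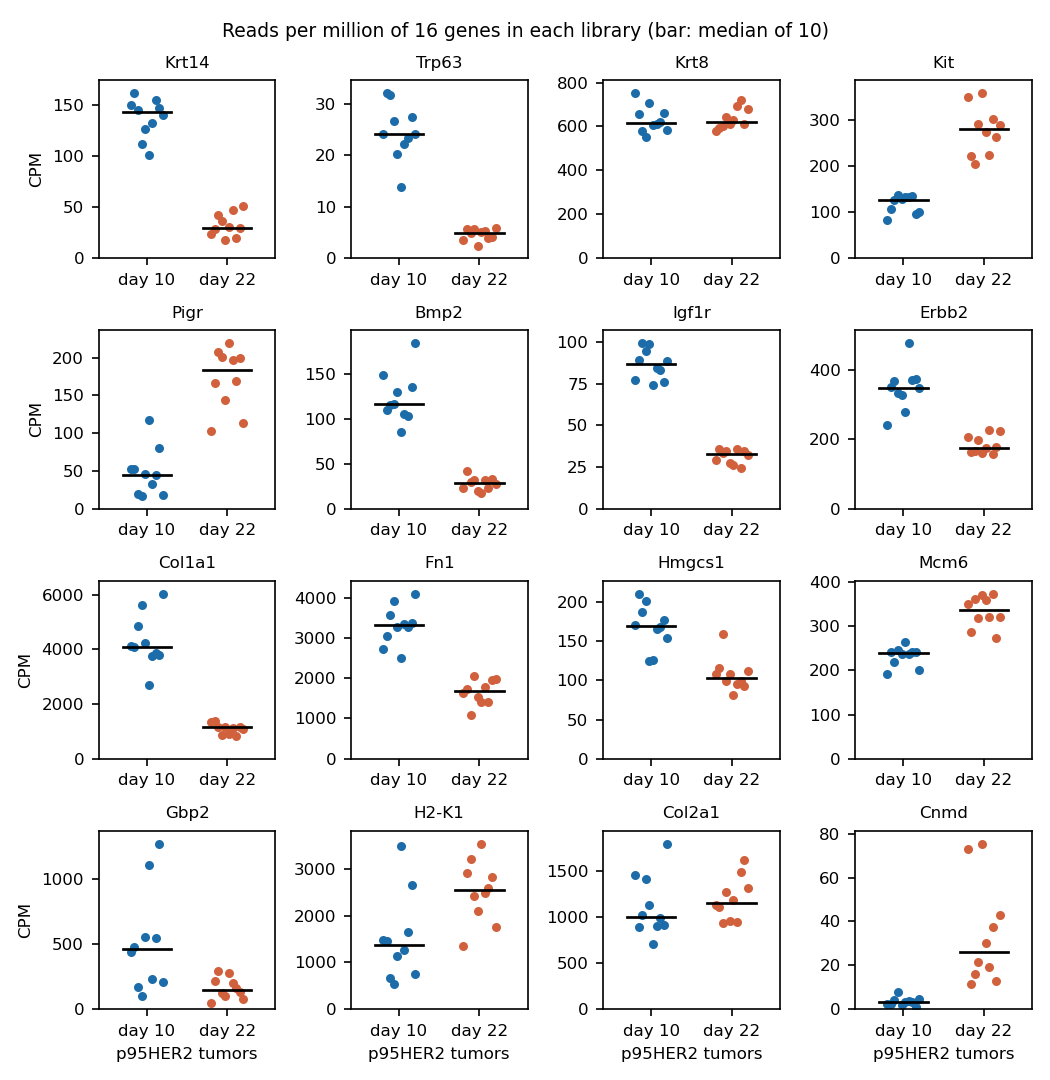
CPM of 16 genes (1 panel each, y axis from 0) in the 10 libraries of each day (x), with the median as a bar. Krt14, Trp63, Bmp2, Igf1r, Erbb2, Col1a1 and Fn1 are lower in every day 22 library, Kit, Mcm6 and Cnmd are higher in every one, and the days overlap in Krt8 and Col2a1.

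Luminal genes went both ways. Of 30 listed 28 were tested, and 8 were higher, 10 lower and 10 not called, with a median of 0.02 (64.3% called against 36% of all genes). Kit, the stem cell factor receptor that marks luminal progenitors, lay between 83.6 and 137 CPM at day 10 (median 127) and between 204 and 358 CPM at day 22 (median 281) and rose by 1.17 ± 0.11 (adjusted p = 1.77e-08). Elf5, a transcription factor of the alveolar lineage, lay between 36.5 and 46.3 CPM at day 10 (median 42.1) and between 49.1 and 83.4 CPM at day 22 (median 61.6) (log2 change 0.52 ± 0.07, adjusted p = 3.54e-06). Cldn3, a tight junction protein, rose by 0.69 ± 0.06 and the transcriptional co-regulator Cited1 by 1.43 ± 0.15. In these 4 genes every day 22 library was above every day 10 library (2.72% of all genes), which the choice by small adjusted p favors. Krt7, a keratin of simple epithelia, moved the other way, between 186 and 298 CPM at day 10 (median 233) and between 37.8 and 83.8 CPM at day 22 (median 59.4) (log2 change -2.12 ± 0.13, adjusted p = 5.98e-11). Esr1, the estrogen receptor, lay between 19.9 and 28.6 CPM at day 10 (median 21.9) and between 10.7 and 17.3 CPM at day 22 (median 12.6) (log2 change -0.87 ± 0.09, adjusted p = 7.76e-08), and Areg, the EGF-like ligand that estrogen induces in the gland, went from a median of 33.7 to 10.9 CPM (log2 change -1.76 ± 0.16, adjusted p = 1.17e-08). None of these 3 overlapped (4.26% of all genes were lower without overlap). The general epithelial genes Krt8 and Cdh1, both picked after their values were seen, were not called. Krt8 lay between 553 and 752 CPM at day 10 (median 616) and between 577 and 722 CPM at day 22 (median 622) (adjusted p = 0.523). Cdh1, E-cadherin, had medians of 393 to 381 CPM (adjusted p = 0.248). The remaining members of the list are not given here.

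Some genes of secretion rose. Pigr, the receptor that carries immunoglobulin A across the epithelium, lay between 16.3 and 118 CPM at day 10 (median 45.1) and between 103 and 219 CPM at day 22 (median 183) (log2 change 2.005 ± 0.30, adjusted p = 1.42e-05). Csn3, kappa-casein, lay between 5.03 and 25.2 CPM at day 10 (median 11.02) and between 27.5 and 55.1 CPM at day 22 (median 39.6) (log2 change 1.72 ± 0.26, adjusted p = 1.63e-05). Both rose, and a single day 10 tumor with 118 CPM made the Pigr groups overlap. Of 18 milk and alveolar genes 10 were tested, with 3 higher (Csn3, Elf5 and Muc15), 1 lower and a median of 0.06, a called share of 40% against 36% of all genes. Muc15, a membrane mucin, changed by 0.82 ± 0.17, with adjusted p = 0.0599 in the libraries with few muscle reads. The 1 lower was Stat5b, a signal transducer of prolactin (log2 change -0.71 ± 0.13, adjusted p = 0.000115). The main milk protein genes Csn2, Wap and Lalba were below the filter, at no more than 2.67 CPM in any library. Of the 7 tested genes of secretory epithelium, 4 were higher, namely Dcpp1 and Dcpp3, whose entry into the test rested on day 22, Pigr and the water channel Aqp5 (0.33 ± 0.06). Aqp5 was not called in the libraries with muscle reads (adjusted p = 0.0504). The 1 lower was Foxj1, the factor of ciliated cells, which went from a median of 7.60 to 3.39 CPM without overlap (log2 change -1.35 ± 0.15, adjusted p = 3.85e-07).

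Mesenchymal genes that mark epithelial-mesenchymal transition fell together. All 18 listed genes were tested, 17 were lower and 1 was higher, with a median of -0.74, while 36% of all genes were called. Fn1, fibronectin, lay between 2504 and 4094 CPM at day 10 (median 3308) and between 1093 and 2066 CPM at day 22 (median 1684) and fell by 1.07 ± 0.11 (adjusted p = 8.87e-08). Cdh2, N-cadherin, lay between 8.88 and 16.9 CPM at day 10 (median 12.3) and between 3.66 and 7.05 CPM at day 22 (median 5.36) (log2 change -1.35 ± 0.14, adjusted p = 8.21e-08), and Cdh11, the cadherin of mesenchymal cells, went from a median of 37.4 to 10.6 CPM (log2 change -1.64 ± 0.17, adjusted p = 1.25e-07). Each of these was lower in every day 22 library than in any day 10 library (4.26% of all genes were). The actin-linking protein Msn changed by -0.73 ± 0.06 without overlap, and the filament protein Vim by -0.52 ± 0.09 and the repressor Zeb1 by -0.62 ± 0.14 with overlap. The call of Zeb1 was lost in the 10 libraries with muscle reads (adjusted p = 0.102). Foxc2, a forkhead factor at a few CPM, was the 1 member called higher (log2 change 0.51 ± 0.18, adjusted p = 0.0276), and this call was lost within each split of the libraries (adjusted p = 0.356 with and 0.113 without muscle reads). Fibroblasts express most of these genes too, and 22 of 29 fibroblast markers fell between the same days. Their part in the fall of this list was not tested.

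In the TGF-beta and BMP pathway ligands, inhibitors and targets were lower. Of 34 genes 32 were tested, 18 were lower, 2 higher and 12 not called (62.5% called against 36% of all genes, median -0.30). Among ligands, Bmp2 lay between 84.8 and 184 CPM at day 10 (median 116) and between 16.9 and 41.3 CPM at day 22 (median 28.4) and fell by 2.23 ± 0.15 (adjusted p = 2.21e-10). Inhba, the activin A subunit, lay between 52.02 and 96.8 CPM at day 10 (median 70.7) and between 15.9 and 29.8 CPM at day 22 (median 23.8) (log2 change -1.79 ± 0.13, adjusted p = 7.05e-10), and Tgfb1 went from a median of 120.0 to 73.1 CPM (log2 change -0.80 ± 0.06, adjusted p = 2.71e-09). Fst, the secreted inhibitor follistatin that binds activin, lay between 76.1 and 159 CPM at day 10 (median 127) and between 25.1 and 43.8 CPM at day 22 (median 31.9) (log2 change -1.96 ± 0.13, adjusted p = 2.4e-10). The immediate targets of BMP receptors Id1 (-1.78 ± 0.18) and Id3 (-2.55 ± 0.23) fell as well. All 6 genes were lower in every day 22 library than in any of day 10, against 4.26% of all genes, but their choice by small adjusted p or large change favors this. The 2 members that rose were Id2, another Id factor (0.43 ± 0.08), and the ligand Bmp6 (0.98 ± 0.28), which was at a median of 0.682 to 1.76 CPM and was not called within either split of the libraries by muscle reads.

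Wnt, IGF and Notch genes had more members lower than higher. Over all genes tested 18.9% were lower and 17.1% higher, 36% in either direction. Of 37 Wnt genes 26 were tested, 16 were lower and 4 higher (76.9% called, median -0.59). The ligands Wnt7b, with between 28.8 and 54.1 CPM at day 10 (median 40.8) and between 8.43 and 16.6 CPM at day 22 (median 13.1) (log2 change -1.70 ± 0.14, adjusted p = 3.27e-09), and Wnt5a, with medians of 5.95 to 1.86 CPM (log2 change -1.86 ± 0.16, adjusted p = 9.57e-09), did not overlap. The feedback inhibitor Nkd2 (-0.81 ± 0.09) and the secreted Dkk3 (-1.59 ± 0.18) fell too. The 4 that rose were the secreted Wnt inhibitors Wif1, from a median of 37.6 to 78.6 CPM (0.95 ± 0.13), and Sfrp1, from 135 to 215 CPM (0.56 ± 0.08), the enhancer Rspo1 (0.42 ± 0.15) and the receptor-degrading Rnf43 (0.28 ± 0.08). Rspo1 lost its call in 5 of the 20 fits that each left out 1 library, and Rnf43 in the libraries with muscle reads (adjusted p = 0.0666). Of 15 tested genes of insulin-like growth factor signaling 9 were lower and none higher (60.0% called, median -0.80). Igf1r, the receptor, lay between 74.5 and 99.3 CPM at day 10 (median 86.7) and between 24.4 and 36.1 CPM at day 22 (median 32.9) (log2 change -1.53 ± 0.08, adjusted p = 7.06e-12), a change of 2.90-fold with no overlap. Its adaptor Irs1 changed by -0.80 ± 0.10, and the secreted binding proteins Igfbp4 by -1.06 ± 0.10 and Igfbp5 by -0.80 ± 0.10. Igfbp5 was not called after quantile normalization (adjusted p = 0.147). Of 16 tested Notch genes 6 were lower and 2 higher (the receptor Notch1, 0.28 ± 0.08, and the target Hey1, 0.16 ± 0.05). Without the libraries with Krt1 neither Notch1 nor Hey1 was called (adjusted p = 0.0624 and 0.135), nor was Hey1 in those with muscle reads (0.365). The ligand Jag1 lay between 35.3 and 64.6 CPM at day 10 (median 45.99) and between 14.1 and 22.8 CPM at day 22 (median 18.9) (log2 change -1.40 ± 0.11, adjusted p = 2.2e-09), and the receptor Notch2 changed by -0.63 ± 0.09. Jag1 and Notch2 were each lower in every day 22 library.

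**Figure D3:**
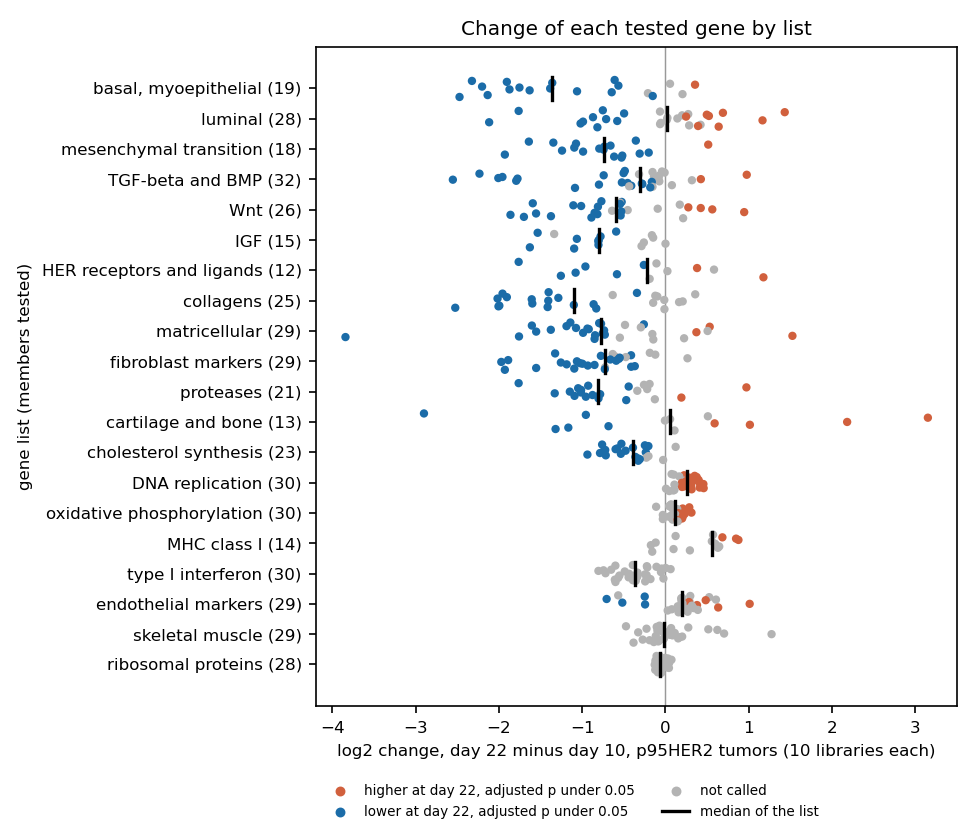
Each point is 1 tested gene, placed by its log2 change between day 22 and day 10 in p95HER2 tumors (x) within its list (y), in color where the adjusted p was under 0.05, and the bar is the list's median. Basal, mesenchymal, collagen and fibroblast lists lie mostly left of zero (medians -1.36, -0.74, -1.10 and -0.73), DNA replication lies right of it (0.25), and no muscle or ribosomal gene is in color.

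Collagen and fibroblast genes were lower at day 22. Of 28 collagen genes 25 were tested, 16 were lower, none higher and 9 not called (64.0% called against 36% of all genes, median -1.10). Col1a1, a chain of fibrillar collagen I, lay between 2698 and 6034 CPM at day 10 (median 4101) and between 825 and 1367 CPM at day 22 (median 1146) (log2 change -2.02 ± 0.12, adjusted p = 6.75e-11), 4.04-fold lower at day 22. Col6a1 and Col6a2, chains of the microfibrillar collagen VI, changed by -1.99 ± 0.12 and -2.005 ± 0.13. These 3 did not overlap, whereas Col4a1, a basement membrane chain that vessels also make, was not called, between 182 and 423 CPM at day 10 (median 272) and between 266 and 502 CPM at day 22 (median 311) (adjusted p = 0.235). Of 29 tested fibroblast markers 22 were lower and none higher (75.9% called against 36% of all genes, median -0.73). Has2, the hyaluronan synthase, lay between 19.7 and 35.95 CPM at day 10 (median 24.7) and between 5.70 and 9.63 CPM at day 22 (median 7.41) (log2 change -1.89 ± 0.13, adjusted p = 2.59e-10). The elastic fiber genes Mfap4 (-1.19 ± 0.14) and Fbln5 (-1.60 ± 0.15) and the collagen cross-linking enzyme Loxl1 (-1.06 ± 0.14) fell without overlap. Within the libraries with muscle reads 18 fibroblast markers were lower, and within the others 13. Of all 13012 genes 1433 and 1787 were lower in the same subsets.

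Among matricellular proteins and proteoglycans, 19 of 29 tested were lower and 3 higher (75.9% called against 36% of all genes, median -0.77). Tnc, tenascin-C of remodeling matrix, lay between 598 and 1483 CPM at day 10 (median 986) and between 205 and 375 CPM at day 22 (median 311) (log2 change -1.76 ± 0.13, adjusted p = 7.69e-10), and Postn, periostin, lay between 555 and 1495 CPM at day 10 (median 989.9) and between 249 and 519 CPM at day 22 (median 339) (log2 change -1.55 ± 0.14, adjusted p = 1.32e-08). Neither overlapped between the days. Thbs4, a thrombospondin of tendon and muscle, went the other way, between 5.58 and 77.5 CPM at day 10 (median 22.7) and between 34.01 and 159.8 CPM at day 22 (median 65.95) (log2 change 1.53 ± 0.40, adjusted p = 0.00441), and was not called without the libraries with Krt1 (adjusted p = 0.12). The other two higher were the microfibril gene Fbn2 (0.53 ± 0.18), not called without day 22 replicate 1, and Prelp (0.37 ± 0.12), not called without the libraries with Krt1 (adjusted p = 0.0772). Of 21 tested proteases and plasminogen genes 14 were lower and 2 higher (76.2% called, median -0.80). The plasminogen activators Plat (-1.33 ± 0.10) and Plau (-0.78 ± 0.09) fell without overlap. Mmp10, a secreted stromelysin, fell from a median of 5.47 to 1.49 CPM (log2 change -1.76 ± 0.22, adjusted p = 1.18e-06), while Mmp15, a membrane-bound metalloproteinase, lay between 20.4 and 36.3 CPM at day 10 (median 27.7) and between 49.8 and 64.1 CPM at day 22 (median 53.9) and rose (log2 change 0.97 ± 0.09, adjusted p = 2.67e-08). The other member called higher, the protease inhibitor Serpine2, changed by 0.19 ± 0.07 and lost its call in 13 of the 20 fits that left out 1 library.

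Smooth muscle and pericyte genes split. Of 17 tested 7 were lower and 2, Rgs5 and Lmod1, were higher (52.9% called against 36% of all genes, median -0.24). The contractile genes Tagln, with between 37.9 and 116 CPM at day 10 (median 58.5) and between 18.4 and 37.7 CPM at day 22 (median 25.3) (log2 change -1.32 ± 0.17, adjusted p = 3.05e-06), and Actg2, with medians of 10.4 to 2.68 CPM (log2 change -1.95 ± 0.28, adjusted p = 1.12e-05), fell, as did Cnn1 above. Rgs5, which marks pericytes, was higher (log2 change 0.61 ± 0.19, adjusted p = 0.0136), with adjusted p = 0.128 without the libraries with Krt1 and 0.116 in the libraries with muscle reads. Lmod1, a leiomodin of smooth muscle, changed by 0.43 ± 0.12, with adjusted p = 0.0574 and 0.218 in the same subsets.

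Cartilage and bone genes did not move as 1 group: of 13 tested, 4 were higher, 5 lower and 4 not called (69.2% called against 36% of all genes). Col2a1, the main cartilage collagen, lay between 705 and 1798 CPM at day 10 (median 1008) and between 938 and 1625 CPM at day 22 (median 1160.4) (adjusted p = 0.803), and Sox9, the factor that drives it, had medians of 614 to 702 CPM (adjusted p = 0.119). Sox9 was called higher in 6 other settings, among them quantile normalization (adjusted p = 0.0133) and log2(CPM + 1) (0.0106). Col9a2, a collagen that coats collagen II fibrils, lay between 9.63 and 18.9 CPM at day 10 (median 15.8) and between 29.1 and 183 CPM at day 22 (median 58.2) (log2 change 2.18 ± 0.24, adjusted p = 2.36e-07) and rose without overlap, as Cnmd did. The matrix proteins Col9a3 (0.59 ± 0.12) and Comp (1.02 ± 0.18) were the other two higher, Comp not in the libraries with muscle reads alone (adjusted p = 0.0523). Acan lay between 5.29 and 15.01 CPM at day 10 (median 10.1) and between 0.769 and 2.42 CPM at day 22 (median 1.31) (log2 change -2.90 ± 0.22, adjusted p = 1.6e-09), Matn4, a matrilin, changed by -1.17 ± 0.13 and Runx2, the transcription factor of bone and hypertrophic cartilage, by -1.32 ± 0.11. These 3 were lower in every day 22 library (4.26% of all genes were). The mineralization genes Alpl (-0.96 ± 0.13) and Dmp1 (-0.68 ± 0.16) were lower too, Dmp1 with overlap and not without the libraries with Krt1 (adjusted p = 0.0794).

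Of 12 tested HER receptors, ligands and regulators, 6 were lower, 2 higher and 4 not called (66.7% called against 36% of all genes, median -0.22). Erbb2, to which reads of the construct count as far as they align, lay between 240.2 and 475 CPM at day 10 (median 348) and between 156 and 227 CPM at day 22 (median 175) (log2 change -0.96 ± 0.10, adjusted p = 7.78e-08), 1.95-fold lower at day 22 with no overlap. Endogenous and construct reads were not separated here. Erbb3, the kinase-poor partner of HER2, was higher (log2 change 0.38 ± 0.08, adjusted p = 0.000822) and Egfr slightly lower (log2 change -0.26 ± 0.09, adjusted p = 0.0249), both with overlap. Erbb3 was not called in the libraries with few muscle reads (adjusted p = 0.0696) nor Egfr in those with muscle reads (0.291) or with log2(CPM + 1) (0.0855). Of the ligands, Areg (above) and Hbegf, at medians of 41.95 to 20.2 CPM (log2 change -1.08 ± 0.13, adjusted p = 1.43e-06), fell, while the neuregulin Nrg2 lay between 10.6 and 19.5 CPM at day 10 (median 16.2) and between 27.7 and 47.3 CPM at day 22 (median 39.2) and rose (log2 change 1.18 ± 0.10, adjusted p = 1.04e-08). Lrig1, which promotes degradation of HER receptors, changed by -0.58 ± 0.07. Hbegf and Lrig1 were lower and Nrg2 higher in every day 22 library.

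MAPK target genes showed no shared direction: of 21 tested, 5 were higher, 6 lower and 10 not called (52.4% called against 36% of all genes, median -0.07). The phosphatase gene Dusp6, a standard readout of ERK activity, had medians of 236 to 230.1 CPM (adjusted p = 0.483), though it was called lower in the libraries with few muscle reads (0.0204). Dusp5 (-0.998 ± 0.10), the AP-1 subunit Fosl1 (-1.16 ± 0.16), the cytokine Il24 (-1.72 ± 0.34) and the pathway inhibitor Spred1 (-0.33 ± 0.05) fell. Ccnd1, cyclin D1, lay between 959 and 1317 CPM at day 10 (median 1169) and between 1441 and 2088 CPM at day 22 (median 1955) and rose (log2 change 0.65 ± 0.07, adjusted p = 1.11e-07) without overlap. The ETS factors Etv1 (0.64 ± 0.10), Etv4 (0.19 ± 0.05) and Etv5 (0.27 ± 0.05) and Phlda1 (0.39 ± 0.08) rose by less, with overlap. Etv4 was not called in either split by muscle reads (adjusted p = 0.131 and 0.0638), nor Etv5 in the libraries with few (0.0588).

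Of 8 tested oncofetal genes 6 were lower and none higher (75.0% called against 36% of all genes, median -1.37). Hmga2, a chromatin protein of embryonic and tumor cells, lay between 33.8 and 55.98 CPM at day 10 (median 45.7) and between 6.41 and 18.9 CPM at day 22 (median 16.04) (log2 change -1.85 ± 0.19, adjusted p = 1.49e-07), and Igf2bp2, an RNA-binding protein, lay between 19.2 and 24.8 CPM at day 10 (median 21.3) and between 6.89 and 11.9 CPM at day 22 (median 10.2) (log2 change -1.17 ± 0.09, adjusted p = 9.72e-10). Both were without overlap, and the imprinted non-coding RNA Meg3 fell 2.86-fold with overlap (log2 change -1.51 ± 0.25, adjusted p = 4.47e-05). Of 10 CDK inhibitor and senescence genes 4 were lower and 2 higher (60.0% called). Cdkn1b (p27) changed by -0.32 ± 0.04, Cdkn2b (p15) by -0.84 ± 0.12 and Cdkn1c (p57) by -1.66 ± 0.27, and the retinoblastoma gene Rb1 by -0.32 ± 0.05. Cdkn2c (p18) was higher at 0.27 ± 0.06. Cdkn1a (p21) was also called higher at 0.21 ± 0.06, a call lost without the libraries with Krt1 (adjusted p = 0.414) and in those with muscle reads (0.613), and Cdkn2a (p16 and p19) was not called (0.20 ± 0.10, adjusted p = 0.122) but was in 4 other settings, among them log2(CPM + 1) (0.0364).

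Cholesterol synthesis genes fell by small amounts and as a group. Of 24 genes 23 were tested, 19 were lower, none higher and 4 not called (82.6% called against 36% of all genes, median -0.39). The enzymes Msmo1 (-0.94 ± 0.11), Cyp51 (-0.76 ± 0.10) and Fdps (-0.58 ± 0.07) fell alike. Hmgcs1, the synthase ahead of the rate-limiting step, lay between 124 and 210.3 CPM at day 10 (median 169) and between 81.4 and 159 CPM at day 22 (median 103) (log2 change -0.72 ± 0.10, adjusted p = 5.23e-06). In each of these 4 genes some day 22 tumor reached the day 10 range. Within the libraries with muscle reads 11 members were lower and within the others 17, against 1433 and 1787 of all 13012 genes. SREBP factors are known to bind sterol regulatory elements in these promoters. The letters TCACNCCAC were searched on both strands in the 250 bases before the start, and they were present in 1 of the 16 tested members with a promoter in the RefSeq table, Hmgcs1, and in 1.05% of all 32851 promoters of that table. The Hmgcs1 stretch is shown for this match, at chr13:119690101-119690350 of GRCm38 on the plus strand, 5′ to 3′, with the match, which begins 137 bases before the start, in capitals.
Hmgcs1: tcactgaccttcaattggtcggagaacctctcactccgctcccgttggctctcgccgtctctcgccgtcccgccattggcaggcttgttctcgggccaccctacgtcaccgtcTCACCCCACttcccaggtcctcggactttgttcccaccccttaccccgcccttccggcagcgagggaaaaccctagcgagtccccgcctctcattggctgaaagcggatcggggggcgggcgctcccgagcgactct
A match is a description of letters and not a measured binding site.

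Fatty acid synthesis genes divided, with 3 of 14 tested higher and 6 lower (64.3% called against 36% of all genes). Thrsp, a lipogenic regulator of mammary gland and liver, lay between 18.7 and 42.9 CPM at day 10 (median 36.9) and between 82.01 and 124 CPM at day 22 (median 94.2) (log2 change 1.46 ± 0.12, adjusted p = 3.45e-09), and Srebf1, which encodes the SREBP-1 factor, lay between 738 and 959 CPM at day 10 (median 847) and between 1044 and 1388 CPM at day 22 (median 1188) (log2 change 0.44 ± 0.05, adjusted p = 1.41e-06). Both rose without overlap, and the desaturase Fads2 with overlap (0.29 ± 0.09, adjusted p = 0.167 without the libraries with Krt1), while Fasn, the fatty acid synthase, fell 1.38-fold with overlap (log2 change -0.46 ± 0.09, adjusted p = 0.00029). DNA replication genes were slightly higher: 21 of 30 rose, none fell (70.0% called, median 0.25). Mcm6 and Mcm3, subunits of the replicative helicase, lay between 192 and 264 CPM at day 10 (median 239) and between 274 and 373 CPM at day 22 (median 336) (log2 change 0.46 ± 0.06, adjusted p = 3.56e-06) and at medians of 160.5 to 221 CPM (log2 change 0.41 ± 0.05, adjusted p = 3.28e-06), and the primase subunit Prim1 changed by 0.46 ± 0.06. These 3 did not overlap (2.72% of all genes were higher without overlap). Of 30 mitosis genes only 3 were higher (10% called against 36% of all genes, median 0.09). They were Nusap1 (0.22 ± 0.08) and Cdca8 (0.20 ± 0.05) and Birc5 (0.22 ± 0.07), subunits of the chromosomal passenger complex. Nusap1 lost its call in 9 of the 20 fits that left out 1 library, and neither of the others was called in the libraries with muscle reads (adjusted p = 0.0781 and 0.143). Of 30 oxidative phosphorylation genes 10 were higher and none lower (33.3% called against 36% of all genes, median 0.12). None was called within the libraries with muscle reads, 9 were within the others, and 22 were with log2(CPM + 1). Of all 13012 genes 2426, 3208 and 5205 were called in the same settings, in that order. Ndufa10 of complex I changed by 0.24 ± 0.04. Of 29 hypoxia and glycolysis genes 7 were lower and 2 higher, a called share of 31.0% against 36% of all genes. The collagen hydroxylase P4ha1 (-0.54 ± 0.09) and the lactate exporter Slc16a3 (-0.73 ± 0.13) were lower and the hexokinase Hk1 was higher (0.36 ± 0.06).

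Interferon and MHC genes gave few calls against 36% of all genes. None of 30 type I interferon genes passed (median -0.37), none of 9 MHC class II genes (median 0.34), and 3 of 19 interferon-gamma GTPase and related genes were lower (Gbp2, Socs1 and the receptor chain Ifngr2, -0.31 ± 0.07). Ifngr2 was not called in the libraries with few muscle reads (adjusted p = 0.0521). Gbp2, a guanylate-binding protein, lay between 97.7 and 1273 CPM at day 10 (median 461) and between 45.8 and 297 CPM at day 22 (median 145) (log2 change -1.52 ± 0.42, adjusted p = 0.00737), and the chemokine Cxcl10 lay between 36.3 and 651 CPM at day 10 (median 157) and between 16.9 and 153 CPM at day 22 (median 58.3) (log2 change -1.47 ± 0.46, adjusted p = 0.0159). The cytokine inhibitor Socs1 had medians of 17.2 to 6.76 CPM (log2 change -1.41 ± 0.41, adjusted p = 0.00932). Day 10 tumors spread over more than 10-fold in Gbp2, Cxcl10 and Socs1, the groups overlapped, and without the libraries with Krt1 none of the 3 was called (adjusted p = 0.0937, 0.15 and 0.079). Of 14 MHC class I genes 3 were higher and none lower (median 0.57). H2-K1 lay between 546 and 3495 CPM at day 10 (median 1368) and between 1351 and 3537 CPM at day 22 (median 2543) (log2 change 0.85 ± 0.28, adjusted p = 0.0199), H2-Q4 changed by 0.88 ± 0.29 and H2-D1 by 0.68 ± 0.26. H2-D1 lost its call in 14 of the 20 fits that left out 1 library. These paralogs share sequence, so their reads may be divided, and no MHC class I gene was called in either split by muscle reads or without the libraries with Krt1.

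T cell genes were low and uneven. Cd3e, a subunit of the T cell receptor complex, lay between 0.413 and 8.06 CPM at day 10 (median 1.06) and between 0.507 and 6.74 CPM at day 22 (median 1.55) (adjusted p = 0.522), and Cd8a, the cytotoxic co-receptor, lay between 0.0275 and 20.9 CPM at day 10 (median 1.62) and between 0.510 and 13.6 CPM at day 22 (median 3.63) (adjusted p = 0.417). Of 14 tested T cell genes Ccr7, the homing receptor, was higher (0.95 ± 0.27) and 3 were lower: Bcl11b (-1.65 ± 0.24), Tcf7 (-0.53 ± 0.07) and Thy1 (-0.89 ± 0.15), which other cells also express. The called share was 28.6%, against 36% of all genes. Ccr7 was not called in either split by muscle reads (adjusted p = 0.196 and 0.0579). Of 8 tested cytotoxic and NK cell genes 2 were lower, none higher and 6 not called (25.0% called against 36% of all genes). Among the lower was Eomes, a T-box factor of cytotoxic cells, which fell from a median of 7.49 to 4.05 CPM without overlap (log2 change -1.003 ± 0.12, adjusted p = 1.04e-06). Which cells gave the Eomes RNA was not tested. Of 19 tested checkpoint genes 8 were lower and 2 higher (52.6% called against 36% of all genes). Cd276 (B7-H3) lay between 102 and 135 CPM at day 10 (median 112) and between 70.2 and 106 CPM at day 22 (median 87.7) (log2 change -0.46 ± 0.07, adjusted p = 1.43e-05), and Icosl, the ligand of ICOS, lay between 3.54 and 6.25 CPM at day 10 (median 5.10) and between 7.17 and 13.2 CPM at day 22 (median 9.56) and rose (log2 change 0.89 ± 0.12, adjusted p = 4.4e-06), as did Vsir, VISTA (0.40 ± 0.06). Cd274, PD-L1, lay between 4.93 and 50.1 CPM at day 10 (median 13.3) and between 4.84 and 21.5 CPM at day 22 (median 9.47) and was not called (adjusted p = 0.248). The B cell coactivator Pou2af1 rose without overlap, between 4.81 and 12.02 CPM at day 10 (median 7.07) and between 21.7 and 61.1 CPM at day 22 (median 38.9) (log2 change 2.28 ± 0.18, adjusted p = 3.34e-09). Of the 15 genes in the B and plasma cell list 13 had deposited values, and the immunoglobulin genes Igkc and Ighm had none. Pou2af1 was the only one that passed the filter. The summed level of the list was 7.18 to 13.8 CPM at day 10 and 24.7 to 67.4 CPM at day 22, most of it Pou2af1. Among members below the filter, Ms4a1 was at most at 0.451 CPM in any library, Cd79a had medians of 0.142 and 0.225 CPM and Cd22 of 0.724 and 1.17 CPM at the 2 days. Jchain, which joins secreted antibodies, was at a median of 0.0136 CPM at day 10 and 0.956 CPM at day 22, with up to 9.31 CPM. The part of B and plasma cells in the rise of Pou2af1 was not tested. Gjc3, a connexin gene known from myelinating glia, was at most at 0.371 CPM at day 10 and between 2.17 and 6.42 CPM at day 22, and it passed the filter through day 22 alone. Of the other 9 tested Schwann cell and nerve genes none was higher and 3 were lower, namely Ncam1 (-0.57 ± 0.13), Mbp (-0.47 ± 0.12) and Cnp (-0.30 ± 0.10). Ncam1 and Cnp were not called in the libraries with muscle reads (adjusted p = 0.107 and 0.141), nor Mbp in those with few (0.0811).

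Macrophage genes split into 5 higher, 7 lower and 14 not called of 26 tested (46.2% called against 36% of all genes, median -0.01). Mrc1, the mannose receptor, lay between 21.03 and 77.6 CPM at day 10 (median 37.6) and between 10.6 and 29.3 CPM at day 22 (median 13.98) (log2 change -1.36 ± 0.22, adjusted p = 4.26e-05), and Arg1, arginase 1, lay between 75.9 and 306 CPM at day 10 (median 131) and between 57.3 and 98.97 CPM at day 22 (median 78.04) (log2 change -1.002 ± 0.21, adjusted p = 0.000594). Both mark alternatively activated macrophages and both fell, as did Mgl2, with overlap. Arg1 was not called in the libraries with few muscle reads (adjusted p = 0.0895). Gpnmb, a glycoprotein of lipid-laden macrophages, lay between 1.63 and 7.34 CPM at day 10 (median 3.68) and between 8.88 and 20.3 CPM at day 22 (median 12.6) and rose without overlap (log2 change 1.66 ± 0.22, adjusted p = 3.19e-06). The other 4 higher were the lipid carrier Apoe (0.79 ± 0.21), the lipid receptor Trem2 (0.50 ± 0.12), the chemokine receptor Cx3cr1 (0.76 ± 0.24) and Ms4a7 (0.58 ± 0.18), and none of these 4 was called without the libraries with Krt1 (adjusted p = 0.0855, 0.0508, 0.107 and 0.0927). Of 15 tested secreted inflammatory genes 8 were lower and 1 was higher (60.0% called). The 1 higher was the neutrophil chemokine Cxcl1, from a median of 0.697 to 2.10 CPM (log2 change 1.84 ± 0.45, adjusted p = 0.00282), though not in the libraries with muscle reads alone (adjusted p = 0.0882). The falls were led by Ptgs2, the inducible cyclooxygenase, which lay between 36.5 and 85.8 CPM at day 10 (median 52.4) and between 8.20 and 23.5 CPM at day 22 (median 16.7) (log2 change -1.92 ± 0.18, adjusted p = 2.27e-08). Il1rl1, the receptor of interleukin-33, fell from a median of 7.83 to 2.16 CPM (log2 change -1.74 ± 0.22, adjusted p = 2.11e-06).

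Of 29 tested endothelial genes 5 were higher and 4 lower, or 31.0% against 36% of all genes, with a median of 0.20. Pecam1, a marker of all endothelium, lay between 29.2 and 59.6 CPM at day 10 (median 35.6) and between 32.9 and 57.3 CPM at day 22 (median 42.3) (adjusted p = 0.352). Esm1, which marks sprouting tip cells, lay between 4.74 and 10.2 CPM at day 10 (median 6.33) and between 8.09 and 22.3 CPM at day 22 (median 13.9) (log2 change 1.01 ± 0.16, adjusted p = 3.57e-05), and Ecscr, a surface protein of endothelium, was higher too (0.48 ± 0.11), as were the vascular phosphatase Ptprb (0.63 ± 0.16), the VEGF receptor Kdr (0.38 ± 0.14) and the TGF-beta co-receptor Eng (0.28 ± 0.10). The transcription factor Erg (-0.52 ± 0.09) and the tight junction gene Cldn5 (-0.71 ± 0.16) were lower, as were the decoy receptor Flt1 (-0.24 ± 0.07) and the peptide Apln (-0.25 ± 0.10). Kdr, Eng and Apln lost their calls in 8, 11 and 13 of the 20 fits that left out 1 library. In the 10 libraries with muscle reads 1 endothelial gene was higher and 1 lower, against 993 and 1433 of all 13012 genes. Cldn5, Ecscr, Ptprb and Flt1 were not called there (adjusted p = 0.151, 0.141, 0.266 and 0.214). Vegfa lay between 233 and 516 CPM at day 10 (median 379) and between 315 and 514 CPM at day 22 (median 430.4) (adjusted p = 0.395), whereas 3 PDGF ligands fell: Pdgfc lay between 26.4 and 37.5 CPM at day 10 (median 34.7) and between 8.76 and 17.3 CPM at day 22 (median 12.8) (log2 change -1.45 ± 0.11, adjusted p = 1.48e-09), Pdgfa changed by -0.98 ± 0.08 and Pdgfb by -0.83 ± 0.09, all 3 without overlap.

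The change with time was then set against that in FL-HER2 tumors, as a difference of the 2 changes fitted over all 39 libraries. It was called for 2553 of 13012 genes (19.6%), in 1721 with the higher value in p95HER2 and in 832 with the lower, and for 1182 of the 4685 genes that changed in p95HER2 tumors (25.2%). Muscle genes took a median of 1.86% of reads in FL-HER2 tumors at day 10 against 0.0262% in p95HER2 tumors at day 10. In the column headers 8 of the 10 FL-HER2 day 10 libraries carry 5-digit tumor numbers, whose meaning the labels do not give. For replicate 8 of that group the title and the header give different numbers. With the muscle list score as a covariate 2034 genes differed, and with quantile normalization 1134 were higher and 1469 lower, so the split by direction follows the scaling.

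Several of the largest changes were larger in p95HER2 tumors. Stra6 changed by -3.36 with p95HER2 and by -0.47 with FL-HER2 (difference -2.89 ± 0.35, adjusted p = 9.06e-07). As said above, its p95HER2 day 10 libraries met the filter by themselves. Its levels in FL-HER2 tumors are not given here, and the part of the starting level in this difference was not tested. Nfasc rose by 2.90 against 1.01 (difference 1.90 ± 0.25, adjusted p = 1.85e-06) and Ddo by 2.77 against 1.03 (difference 1.74 ± 0.22, adjusted p = 1.08e-06). Mmp15 (0.97 against 0.06, difference 0.91 ± 0.15, adjusted p = 5.99e-05) and Cited1 (1.43 against 0.39, difference 1.04 ± 0.23, adjusted p = 0.00124) rose further with p95HER2 as well. Cnmd (3.15 against 1.51) and Has2 (-1.89 against -1.01) also moved further with p95HER2, by 1.65 ± 0.46, adjusted p = 0.0107 and -0.88 ± 0.25, adjusted p = 0.011. Thbs4 had estimates of opposite sign (1.53 against -0.77, difference 2.30 ± 0.52, adjusted p = 0.0019), as did Rgs5 (0.61 against -0.56, difference 1.17 ± 0.23, adjusted p = 0.000512) and Wif1 (0.95 against -0.64, difference 1.58 ± 0.18, adjusted p = 8.52e-07). Whether their FL-HER2 falls were called is not given here. The p95HER2 rises of Thbs4 and Rgs5 were not called without the libraries with Krt1 (adjusted p = 0.12 and 0.128). Beyond the covariate fits, the part of the larger muscle share of FL-HER2 day 10 tumors in the Thbs4 difference was not tested.

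Basal, matrix and stromal genes fell further with FL-HER2. The share of all tested genes with a called difference, 19.6%, is the background for the counts here. The median of the 25 collagen genes was -1.10 with p95HER2 and -1.82 with FL-HER2, and the difference was called for 15 of them. For the 29 fibroblast markers the medians were -0.73 and -1.98, with 19 differences called. Krt14 (-2.20 against -3.25, difference 1.05 ± 0.26, adjusted p = 0.00372), Mfap4 (-1.19 against -2.36, difference 1.17 ± 0.27, adjusted p = 0.00198) and Postn (-1.55 against -2.29, difference 0.74 ± 0.22, adjusted p = 0.0163) were lower at day 22 with either construct and fell less with p95HER2. The 29 endothelial genes had a median of 0.20 with p95HER2 and -0.58 with FL-HER2, with 21 differences called, Pecam1 among them (difference 0.87 ± 0.18, adjusted p = 0.00102). The 23 cholesterol synthesis genes had the lower median with p95HER2, at -0.39 against -0.14, with 7 differences called. No difference between the constructs was called for any of the 30 DNA replication genes. The largest rises of all, Dcpp3 and Dcpp1, were 5.57 and 5.48 with FL-HER2, and their differences were not called (adjusted p = 0.812 and 0.723). Erbb2 fell by 0.84 with FL-HER2, a difference of -0.12 ± 0.15, adjusted p = 0.609.

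**Figure D4:**
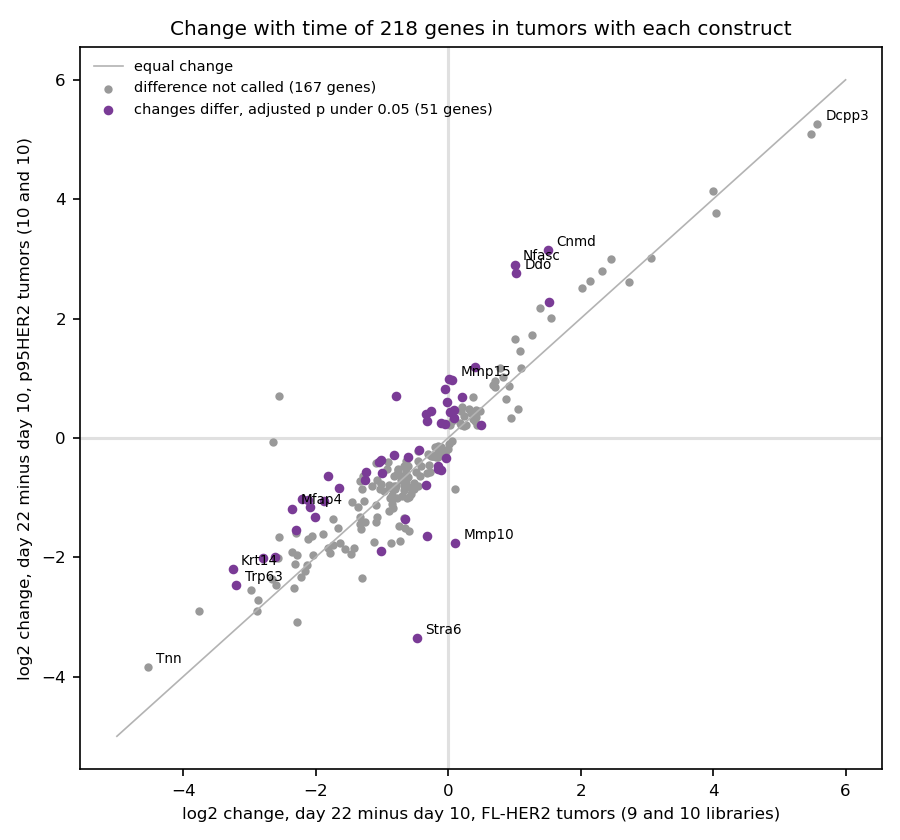
Each point is 1 of the 218 genes chosen by the naming rule, with its log2 change from day 10 to day 22 in FL-HER2 tumors (x) and in p95HER2 tumors (y). The 51 genes whose changes differ are purple, the line marks equal change, and Stra6, Nfasc, Ddo and Cnmd lie far from it while Dcpp3 and Tnn lie near it.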

How the data were processed

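RNA of each tumor sample was sequenced as 1 library, and libraries were grouped by the construct and day in the labels. The deposited table, named CPM by its file, holds log2 values of reads divided by a factor per library, plus 1, and the authors aligned with STAR 2.4.2a to mm10 and used DESeq2, per the submitters' processing notes. Undoing the log2 scale and the factor returned whole reads for 100.0% of values (within 0.001 reads), and CPM was computed from these, with 1 CPM worth 30.8 reads in the smallest library. Genes that reached 1 CPM in 10 or more of the 20 libraries were tested with limma 3.58.1 (R 4.3.3) on the deposited log2 values, with a trended variance, 1 coefficient for the day and Benjamini-Hochberg adjustment over 13012 genes. The difference from FL-HER2 tumors was fitted over 39 libraries. No libraries were identical. The fit was tested on simulated data. Alternatives changed the pseudocount, filter, scaling, test, covariates and libraries.

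Genes named were, first, the 12 largest rises and falls among called genes that reached 5 CPM in whichever day was higher and whose medians differed by 0.5 of the change or more, and then up to 4 called genes with the smallest adjusted p in each list with 3 or more calls. Other genes, such as Krt5, Krt8, Cdh1, Esr1, Vim, Col4a1, Col2a1, Sox9, Vegfa, Egfr, Erbb3, Dusp6, Cdkn2a, Hmgcs1, Cd8a, Cd3e and Pecam1, and members named beside small counts, were chosen after their values were seen. The comparison, the lists and the rule were chosen with earlier results of these data known. Promoter sequences are from RefSeq (GRCm38). Some genes are not reported here.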

Additional observations from a re-analysis of the deposited data

Results flagged for a closer look

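In 26 of 406 gene and day combinations named in the text, 1 library lay apart from the other 9 of its day by more than Dixon's limit for 10 values allows, and chance alone passes this limit in about 1 of 20. Values here are deposited log2 values, and the value of the nearest library stands after each. Day 10 replicate 5 was the lowest library for Trpm3 at 0.00 (nearest 2.85), Id2 at 12.11 (nearest 12.65), Col9a3 at 10.85 (nearest 11.41) and Apoe at 11.52 (nearest 12.98). Day 10 replicate 1 was the highest library for Ndufa10 at 11.96 (nearest 11.79), Comp at 8.19 (nearest 7.44) and Apln at 11.12 (nearest 10.65). Day 10 replicate 6 was the lowest library for Stra6 at 6.28 (nearest 7.06), Trp63 at 8.65 (nearest 9.25) and Cdkn2b at 8.79 (nearest 9.32). Day 22 replicate 3 was the highest library for Stra6 at 5.27 (nearest 4.3996), Cyp51 at 13.26 (nearest 12.72) and Fasn at 13.28 (nearest 13.03). Day 22 replicate 5 was the lowest library for Fat2 at 4.88 (nearest 5.80), Tgfb1 at 10.71 (nearest 10.93) and Igf2bp2 at 7.54 (nearest 7.95). Day 10 replicate 5 was the highest library for Hk1 at 13.44 (nearest 13.19) and Ncam1 at 11.27 (nearest 10.57). Day 22 replicate 2 was the lowest library for Ccnd1 at 15.27 (nearest 15.52) and Cdkn1a at 12.63 (nearest 12.91). Day 10 replicate 1 was the lowest library for Notch1 at 12.78 (nearest 13.17). Day 10 replicate 10 was the highest library for Eng at 10.66 (nearest 10.06). Day 10 replicate 10 was the lowest library for Nrg2 at 8.28 (nearest 8.71). Day 22 replicate 10 was the highest library for Btg2 at 10.99 (nearest 10.62). Day 22 replicate 8 was the lowest library for Plat at 8.22 (nearest 8.60). Day 22 replicate 9 was the highest library for Phlda1 at 14.96 (nearest 14.48).

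The change with time differed between p95HER2 and FL-HER2 tumors, by the test of that difference at an adjusted p under 0.05, for 53 of the genes named. In 40 the log2 change was higher with p95HER2 than with FL-HER2. These differences, in log2 units, were largest for Thbs4 (2.30), Nfasc (1.90), Ddo (1.74), Cnmd (1.65), Wif1 (1.58), Bmp6 (1.38), Mfap4 (1.17), Rgs5 (1.17) and Krt14 (1.05). Smaller ones were found for Cited1 (1.04), Atf3 (0.98), Eng (0.95), Matn4 (0.92), Ptprb (0.92), Mmp15 (0.91), Apoe (0.87), Pecam1 (0.87) and Muc15 (0.86). Next came Loxl1 (0.80), Col6a2 (0.79), Lmod1 (0.77), Col4a1 (0.76), Pou2af1 (0.75), Ms4a7 (0.75), Postn (0.74), Kdr (0.74) and Vsir (0.73). The list continued with Trp63 (0.72), Plat (0.68), Zeb1 (0.65), Col6a1 (0.62), Trem2 (0.61), Vim (0.49), Cldn3 (0.49), Lrig1 (0.42) and Srebf1 (0.41). The rest were Erbb3 (0.38), Sfrp1 (0.38), Phlda1 (0.31) and Aqp5 (0.31). In 13 the log2 change was lower with p95HER2, furthest for Stra6 (-2.89), Mmp10 (-1.87), Bcl11b (-1.32), Has2 (-0.88), Dmp1 (-0.77), Foxj1 (-0.71), Tcf7 (-0.43), Fads2 (-0.41) and Etv4 (-0.39). It was lower too for Erg (-0.37), Fasn (-0.32), Spred1 (-0.30) and Cdkn1a (-0.28). FL-HER2 tumors at day 10 had a larger share of muscle reads than p95HER2 tumors at day 10 (medians of 1.86% and 0.0262% of reads), and its part in these differences beyond the covariate fits was not tested.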

How the results depend on the processing

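Of 203 genes named, 191 were called, and 136 of these kept call and direction under all 39 settings run. The other 55 lost the call in at least 1, none reversed while called, and 40 of them lost it only in fits to part of the libraries. Over all lost calls, 37 were lost without the libraries with Krt1, 40 in those with at least 0.1% muscle reads and 31 in those with less, and 1 gene can count in several. Of the genes not called, Sox9 gained a call in 6 settings, Cdkn2a in 4 and Dusp6 in 1. Leaving out 1 library gave 4322 to 4948 called genes, 2015 to 2314 higher and 2282 to 2634 lower, and cost 9 named genes the call: Foxc2, H2-D1, Rspo1, Fbn2, Serpine2, Nusap1, Kdr, Eng and Apln. Outside these fits Igfbp5 was lost with quantile normalization, Egfr with log2(CPM + 1) and voom, H2-K1 and H2-Q4 with the rank-sum test, Prelp without the 2 day 22 tumors numbered apart and with the rank-sum test, and Cnp with log2(CPM + 1), voom and the rank-sum test. The cause was not tested. Higher genes numbered 3419 under log2(CPM + 1) and 3419 under voom. Without the libraries with Krt1, with fewer samples, 2728 genes were called (1214 higher, 1514 lower). Libraries with at least 0.1% muscle reads gave 2426 (993 higher, 1433 lower), and those with less gave 1421 higher. At a log2 change of at least 1, 566 remained by construction, 182 higher and 384 lower. The difference from FL-HER2 was higher in 1134 and lower in 1469 genes with quantile normalization, and lower in 520 with both covariates. Changes that turned sign were never called: Krt8 at 0.0204 with quantile normalization, 0.0097 with log2(CPM + 1) and 0.0097 with voom, Cdh1 at 0.000545 and 0.000431 under log2(CPM + 1) and voom, Dusp6 at 0.0361 without the Krt1 libraries and 0.101 in those with muscle reads, and Col2a1 at -0.15 without the Krt1 libraries, -0.0221 with the added skin score over all members as covariate, -0.0172 in libraries with muscle reads and -0.0261 without the 2 tumors numbered apart. Leaving out 1 library at a time moved Col2a1 between -0.0115, without day 10 replicate 6, and 0.14. The planned edgeR test was not run, and voom was fitted to the recovered reads in its place. The planned limit on skin genes took all 20 libraries and gave no value. The limits by Krt1 and muscle reads and the skin score over all members were chosen after seeing the data. No paired analysis was possible because the labels give the tumors no replicate numbers shared between days. Depth limits genes near 1 CPM, about 30.8 reads.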

Other observations

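Lists of stress genes had called shares on both sides of the 36% over all genes. Of 23 p53 target genes tested 3 were higher and 3 lower (26.1%, median 0.03), with 17 not called. Btg2, an antiproliferative target of p53, went from a median of 37.8 to 51.3 CPM (log2 change 0.42 ± 0.07, adjusted p = 4.81e-05) with no overlap. Bax, which opens mitochondria in apoptosis, went from 116 to 155.0 CPM (log2 change 0.35 ± 0.08, adjusted p = 0.00116) with overlap, and it was not called without the libraries with Krt1 or in those with muscle reads. Perp, a desmosome protein that p53 and p63 both induce, went from 93.5 to 51.5 CPM (log2 change -0.86 ± 0.08, adjusted p = 1.91e-08) and was lower in every day 22 tumor than in any day 10 tumor. Of 24 unfolded protein genes 1 was higher and 4 lower (20.8%), and of 14 heat shock genes 1 was higher and 2 lower (21.4%). Of 14 immediate early genes (42.9% called) 5 were lower and Atf3, a stress-induced factor, was higher, from 9.83 to 20.007 CPM (log2 change 0.99 ± 0.21, adjusted p = 0.000824), though not in the libraries with few muscle reads.

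Of 17 tested CC and CXC chemokine genes 1 was higher, 3 were lower and 13 not called (23.5% called against 36% of all genes, median -0.05). Ccl11, the eosinophil attractant eotaxin, went from a median of 4.22 to 1.31 CPM (log2 change -1.84 ± 0.34, adjusted p = 0.000166) with overlap. Ccr1, a chemokine receptor of monocytes and neutrophils, went from 13.03 to 6.52 CPM (log2 change -1.12 ± 0.15, adjusted p = 2.59e-06) without overlap. Of 19 complement genes tested none was higher and 7 were lower (median -0.34), a called share of 36.8% that is near the 36% of all genes. Of 20 tested antioxidant genes under NRF2 5 were higher and 5 lower (50%), and of 20 autophagy and lysosome genes 2 were higher and 7 lower (45%).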
